A study of Mus musculus with 8 samples.

Results

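Gpr65, Adora2a, Ptger2 and Ptger4 are 4 genes for cell-surface receptors that raise cyclic AMP (cAMP), out of 32285 genes in the expression tables. They were listed by name. Gpr65 was put forward after earlier results of these data had shown it among the genes that differed between treated and control tumours, so its levels by treatment are given as a description with no test. The cells were CD90.1+ OT-I T cells, CD8+ cells whose receptor recognises ovalbumin, which carried a Cas9 knock-in and a lentiviral library of guides against metabolic genes. They came from crosses of Rag2/OT-I with Rosa26-Cas9 mice and were transferred into Rosa26-Cas9 recipients 5 days after KPC_OVA pancreatic tumour cells, which express ovalbumin, had been injected into the pancreas. The mice were 6 to 12 weeks old. The transferred cells were sorted from the primary tumour 7 days after transfer, from mice given an antibody that blocks PD-1 (aPD-1, 3 libraries) or control IgG (1 library). The labels do not say how many mice each library holds, so the spread between libraries may be in part technical.

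These receptors couple to the stimulatory G protein, which switches on adenylyl cyclase. The cAMP that results activates protein kinase A, which through the kinase Csk restrains signalling from the T cell receptor and through CREB factors switches on genes, and phosphodiesterases then degrade it. Gpr65 senses extracellular protons. Adora2a is a receptor for adenosine, which the ectoenzymes Entpd1 (CD39) and Nt5e (CD73) make from extracellular ATP. Ptger2 and Ptger4 encode the prostaglandin E2 receptors EP2 and EP4. Acid, adenosine and prostaglandin E2 are all known to accumulate in solid tumours, where these receptors dampen T cell activity.

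In the mouse genome build mm10 (GENCODE M21 gene models) Gpr65 lies at chr12:98268635-98276644 on the plus strand, Adora2a at chr10:75316877-75334784 on the plus strand, Ptger2 at chr14:44988195-45003820 on the plus strand and Ptger4 at chr15:5206661-5244187 on the minus strand. Gpr65, Ptger2 and Ptger4 each overlap annotated genes on the opposite strand, among them Ttc33 at Ptger4. RefSeq (GRCm38.p6) gave a promoter for 3 of the 4 genes. The 250 bases before the first transcribed base of each are shown because all 3 genes were higher in the same group of cells, described further on. Capitals mark GGAAA on either strand, the core that NFAT factors bind.
Gpr65, chr12:98268385-98268634, plus strand: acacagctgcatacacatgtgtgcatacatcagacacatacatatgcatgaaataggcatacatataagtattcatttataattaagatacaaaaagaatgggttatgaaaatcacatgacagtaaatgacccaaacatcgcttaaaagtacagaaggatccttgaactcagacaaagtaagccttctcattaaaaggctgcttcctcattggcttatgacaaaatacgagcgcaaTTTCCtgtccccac
Ptger2, chr14:44987861-44988110, plus strand: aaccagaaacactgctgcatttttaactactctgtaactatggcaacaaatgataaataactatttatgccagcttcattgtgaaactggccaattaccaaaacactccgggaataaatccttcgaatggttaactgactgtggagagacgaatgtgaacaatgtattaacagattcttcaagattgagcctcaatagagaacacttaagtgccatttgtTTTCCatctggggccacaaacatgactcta
Ptger4, chr15:5244188-5244437, minus strand: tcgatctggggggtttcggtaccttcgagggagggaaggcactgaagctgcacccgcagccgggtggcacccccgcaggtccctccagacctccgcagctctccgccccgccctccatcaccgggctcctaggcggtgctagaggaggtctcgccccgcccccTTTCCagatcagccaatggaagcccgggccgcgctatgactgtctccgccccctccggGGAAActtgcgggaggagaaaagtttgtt
All 3 windows held GGAAA, as did 55.6% of 32851 windows of the same length. None of the 3 held the cAMP response element TGACGTCA (in 1.55% of all windows), its shorter form TGACG (17.8%), the AP-1 site TGACTCA (4.46%) or the NR4A site AAAGGTCA (1.34%), each searched on both strands. TGACG is part of TGACGTCA. A match or its absence describes these letters in these windows only.

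Cells with exactly 1 guide were kept, 23059 in all, with 2535, 2597 and 6432 cells in aPD-1 replicates 1, 2 and 3 and 11495 in IgG. The median cell held 16829, 16325, 12084 and 6329 UMIs (unique molecules) in that order, so the control library was the shallowest. Levels are given as CPM, the UMIs of a gene in the summed cells scaled to the same total of gene UMIs, and differences as log2 fold changes. Every kept cell held a UMI of a T cell marker, whose 9 genes summed to at least 9409 CPM per library, and 125 cells held at least 10 UMIs of markers of other cell types. Of the lists for other cell types the B or plasma cell genes were highest, at 57.6 to 252 CPM. The epithelial or tumour cell genes reached 22.9 CPM, the myeloid genes 11.8, the fibroblast genes 11.7, the acinar genes 8.41 and the endothelial genes 0.082 CPM. Libraries shared 3 to 18 barcodes per pair, at most 0.473% of the smaller one. In earlier results of these data replicates 1 and 2 stood apart from replicate 3 and IgG. The labels do not call this a batch, and it is taken into account below by giving replicate 3 against IgG alone.

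Gpr65, the proton sensor, was at 118, 118 and 123 CPM in aPD-1 replicates 1, 2 and 3 and at 71.7 CPM in IgG. All 3 treated libraries lay close together (120 ± 3.05 CPM, SD, n = 3) and above the control, a fitted difference of 0.75 log2. The channel names of replicates 1 and 2 differ only in their last digit. The labels do not say whether these 2 libraries share a preparation, so the SD may be in part technical. Replicate 3 alone lay 0.78 log2 above IgG. Among all 13810 genes fitted, 22% had all 3 aPD-1 libraries above IgG and 46% had them all on 1 side of it, and since Gpr65 was chosen on this contrast nothing is read from its place among them.

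Adora2a, the adenosine receptor, was at 22.4, 20.7 and 25.5 CPM with aPD-1 and 22.6 CPM with IgG, so that the control lay inside the range of the treated libraries. Ptger2 was at 11.96, 12.1 and 14.9 CPM with aPD-1 and 16.4 CPM with IgG, below the control in each treated library by a fitted 0.32 log2 (23.9% of all genes had all 3 below). Ptger4 was at 19.5, 18.3 and 14.3 CPM with aPD-1 and 13.8 CPM with IgG, above the control by 0.35 log2. For both prostaglandin receptors replicate 3 was the treated library nearest to IgG, and with replicate 3 alone the differences were -0.13 log2 for Ptger2 and 0.05 log2 for Ptger4. The treatment and the difference between the pairs of libraries cannot be told apart for these 2 genes.

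**Figure D1:**
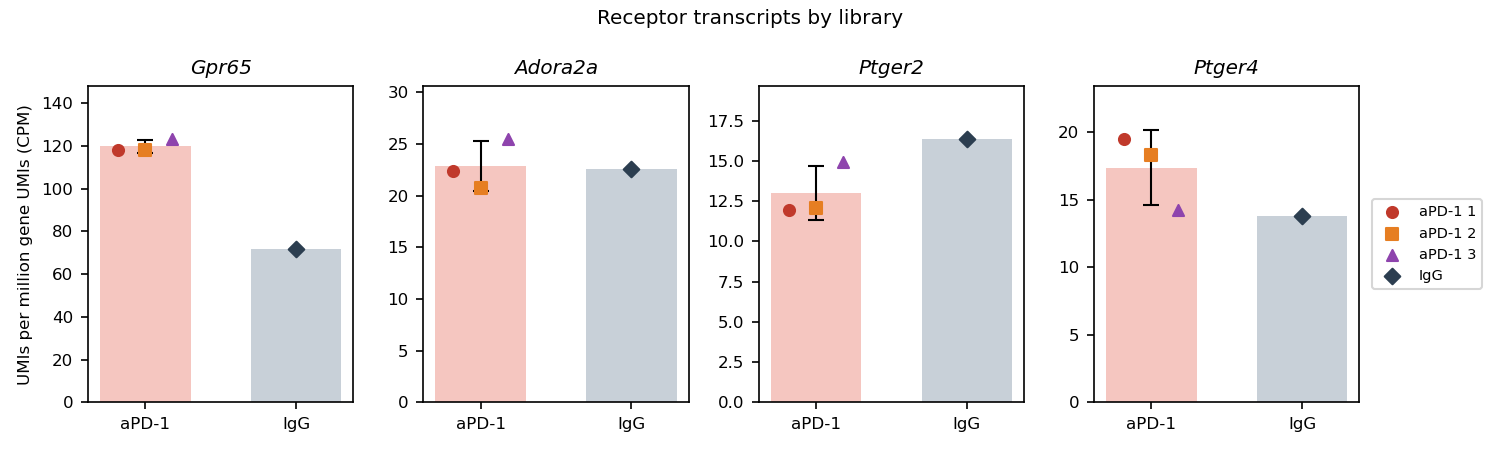
CPM (y axis, from 0) of the 4 receptors in each library. Bars are the mean of the 3 aPD-1 libraries, with SD, and the single IgG library, and points are libraries. The 3 aPD-1 points of Gpr65 lie between 118 and 123 CPM, above IgG at 71.7 CPM, while those of Adora2a lie on both sides of IgG.

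Cells were then sorted into groups by 9 short lists of marker genes, none of which holds a receptor or a pathway gene. A cell joined the list on which it scored highest if that score lay more than 1 SD above the mean of its library. The groups were named for their lists: precursor (Tcf7, Slamf6, Id3 and others, 2302 cells), memory (Klf2, S1pr1 and others, 1903), exhausted (Pdcd1, Havcr2, Tox, 1301), cytokine (Ifng, Tnf, Ccl3, 2669), granzyme (Gzmc, Gzmd, Gzmf, 1087), G1/S (2573) and G2/M (3123) of the cell cycle, interferon (Isg15, Ifit1, 1988) and hypoxia (Bnip3, Egln3, 2181). The other 3932 cells formed the unscored group. These are ranges of a score and not cell types, and 1985 cells lay within 0.1 of the limit. Median UMIs per cell were 0.717 to 0.745 of the library median in the exhausted group and 1.42 to 1.499 in G2/M, so the groups differed in depth. Among the leading genes of the hypoxia group was H2-Ab1, an MHC class II gene that is typical of antigen-presenting cells.

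Gpr65 was above IgG in all 3 aPD-1 libraries within each of the 10 groups. In the cytokine group it stood at 162, 173 and 227 CPM with aPD-1 and at 133 CPM with IgG, and in the precursor group at 84.7, 84.6 and 74.3 CPM against 46.1 CPM. Over the 10 groups the mean log2 difference ran from 0.48 in the cytokine group to 0.90 in the unscored group. The groups are parts of the same libraries on which Gpr65 was chosen, so these values are a description.

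Ptger4 was above IgG in all 3 aPD-1 libraries in 6 of 10 groups and Adora2a in 2. Ptger2 was below IgG in all 3 libraries in 8 of 10 groups and above it in the precursor group.

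Between groups the receptors differed within each library, and 20 of the 40 receptor-by-group comparisons passed the test (edgeR quasi-likelihood test on sums per group and library, each group against the mean of the other 9, library as a block, Benjamini-Hochberg adjusted p under 0.05). Over all 10816 genes outside the marker lists, 33.4% of gene-by-group comparisons passed. The cytokine group was the only one of the 10 in which all 4 receptors passed, each of them higher, and there 24.6% of all genes were called higher. In sgNT cells alone Gpr65 still passed in that group, while Adora2a (0.20 log2, adjusted p = 0.50), Ptger2 (0.54 log2, adjusted p = 0.094) and Ptger4 (0.40 log2, adjusted p = 0.21) did not. Gpr65 passed in 8 groups, Ptger2 in 5, Ptger4 in 4 and Adora2a in 3.

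The share of all genes called differed between groups, and the receptors' calls below are to be read against it. Of all genes 24.1% passed in the unscored group (13.8% higher, 10.3% lower), 33.5% in the precursor group (15.5% higher, 17.9% lower) and 23.9% in the memory group (10.7% higher, 13.1% lower). In the exhausted group 35.8% passed (17.8% higher, 18% lower) and in the cytokine group 47.9% (24.6% higher, 23.3% lower). The granzyme group had 17.2% (7.72% higher, 9.52% lower), the interferon group 16.3% (7.48% higher, 8.83% lower) and the hypoxia group 31.7% (14.8% higher, 16.9% lower). Shares were largest in the cell-cycle groups, at 54.7% in G1/S (28.7% higher, 26% lower) and 49.2% in G2/M (24.2% higher, 25% lower).

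**Figure D2:**
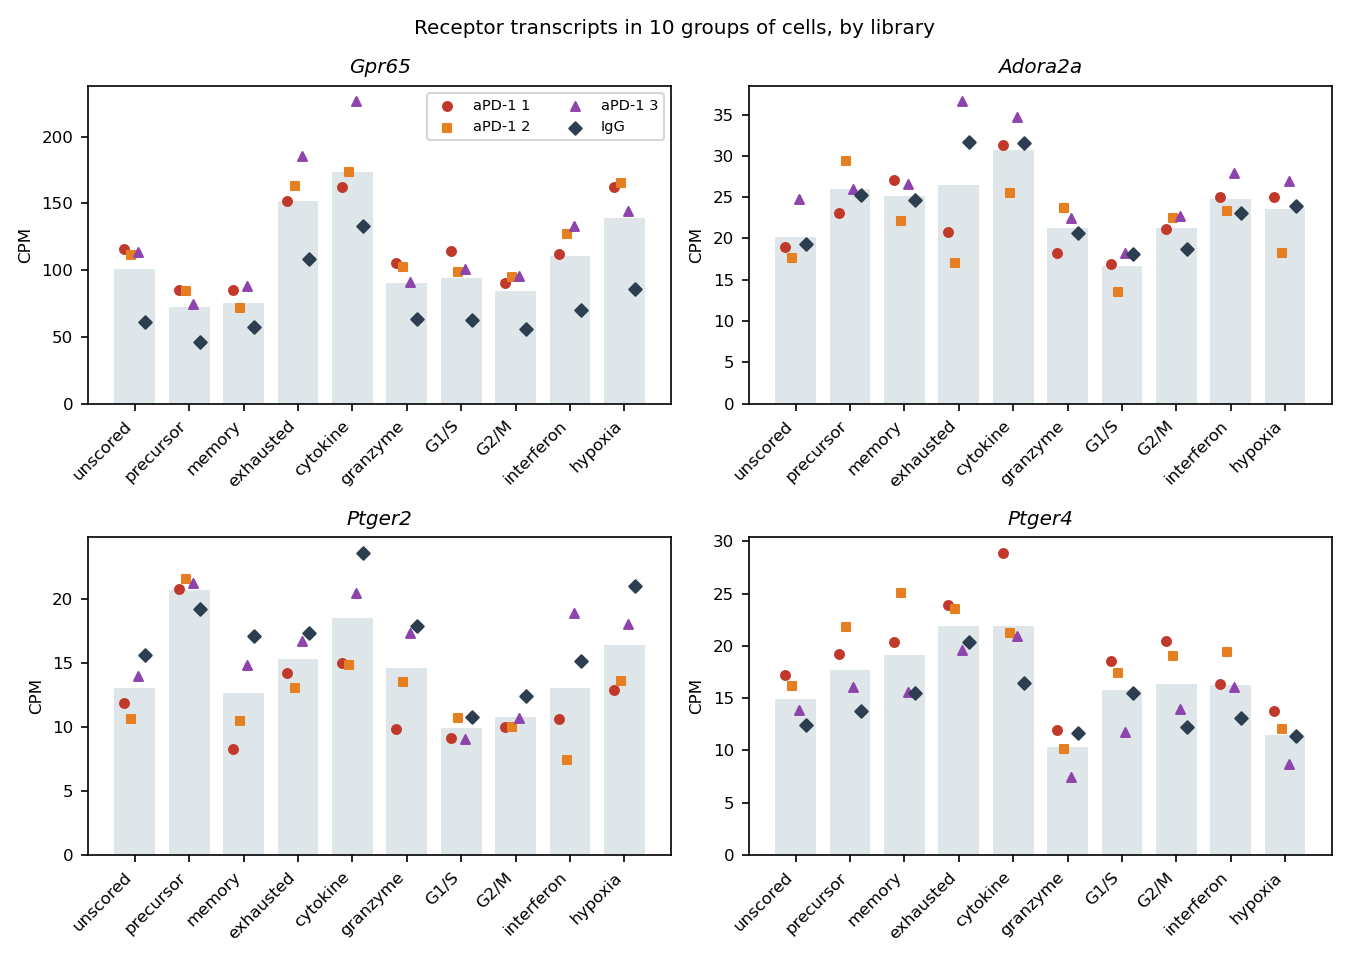
CPM (y axes, from 0) of each receptor in the 10 groups of cells. Bars are the mean of 4 libraries and points are libraries. Gpr65 is highest in the cytokine, exhausted and hypoxia groups and its IgG point is the lowest in every group.

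Gpr65 was 0.92 ± 0.05 log2 (SE) higher in the cytokine group than in the mean of the others (adjusted p = 4.87e-18), above it in 4 of 4 libraries. The exhausted group followed at 151, 163 and 185 CPM with aPD-1 and 108 CPM with IgG (0.58 ± 0.07 log2, adjusted p = 2.57e-09), and the hypoxia group at 162, 165, 144 and 86.1 CPM (0.45 ± 0.06 log2, adjusted p = 4.90e-08). Both were above the other groups in 4 of 4 libraries. Gpr65 was lowest in the precursor group (fell by 0.64 log2, adjusted p = 8.83e-10) and in the memory group, where it was at 85.2, 71.3, 88.0 and 57.4 CPM (fell by 0.55 log2, adjusted p = 1.05e-07). It was also lower in G2/M, granzyme and G1/S, at -0.35, -0.25 and -0.18 log2. The granzyme and G1/S calls held in 9 of 15 and 9 of 14 alternatives, and both ended without aPD-1 replicate 3 (adjusted p = 0.23 and 0.061). Gpr65 did not pass in the interferon (0.06 log2) and unscored (-0.05 log2) groups. With cycling cells left out it passed in the unscored group (-0.23 log2, adjusted p = 0.0041). From highest to lowest, the mean ran from 174 to 72.4 CPM, 2.40-fold. Of the 9 steps between neighbours in that order, cytokine over exhausted and hypoxia over interferon were of the same sign in all libraries and larger than their spread, and the other 7 were not.

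Adora2a was at 31.3, 25.5 and 34.7 CPM in the cytokine group with aPD-1 and at 31.6 CPM with IgG. That was 0.53 ± 0.07 log2 above the other groups (adjusted p = 7.45e-08, 4 of 4 libraries). It was lowest in the G1/S group, which marks cells copying their DNA, at 16.9, 13.6, 18.2 and 18.1 CPM (fell by 0.52 log2, adjusted p = 5.47e-07). Adora2a split the libraries in the exhausted group, with 20.8 and 17.0 CPM in aPD-1 replicates 1 and 2 and 36.6 and 31.6 CPM in replicate 3 and IgG, and this group did not pass (0.25 log2, adjusted p = 0.059). It did pass without aPD-1 replicate 1 (0.34 log2, adjusted p = 0.029) and without replicate 2 (0.38 log2, adjusted p = 0.0016), and was at 0.09 log2 without replicate 3 and -0.34 log2 after thinning to 2000 UMIs. The unscored group was 0.20 log2 lower (adjusted p = 0.041), a call that held in 9 of 14 alternatives and ended without aPD-1 replicate 1 (adjusted p = 0.13) and without IgG (adjusted p = 0.19). Of the 9 steps in the order of groups only unscored over G1/S was larger than its spread.

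Ptger2, the EP2 receptor, had its highest level in the precursor group, at 20.7, 21.5 and 21.2 CPM with aPD-1 and 19.2 CPM with IgG. The 4 libraries lay close together there, 0.52 ± 0.10 log2 above the other groups (adjusted p = 5.98e-05). The call ended after thinning to 2000 UMIs (0.38 log2, adjusted p = 0.14) and in sgNT cells alone (0.69 log2, adjusted p = 0.11). The cytokine group was as far above the others (0.51 ± 0.09 log2, adjusted p = 5.18e-06) but more spread out, at 14.96, 14.8, 20.5 and 23.6 CPM. Precursor and cytokine did not differ beyond their spread. The unscored group did not pass (-0.11 log2), but did with cycling cells left out (-0.37 log2, adjusted p = 5.0e-04). Ptger2 was lower in both cell-cycle groups, at 9.15, 10.7, 9.05 and 10.8 CPM in G1/S (fell by 0.62 log2, adjusted p = 1.10e-06) and at 9.97 to 12.4 CPM in G2/M (fell by 0.45 log2, adjusted p = 4.50e-05). In the hypoxia group it was just past the threshold (0.25 log2, adjusted p = 0.049), a call that held in 9 of 15 alternatives. It ended without aPD-1 replicate 3 (0.25 log2, adjusted p = 0.11) and without IgG (0.18 log2, adjusted p = 0.30). It also ended after thinning to 2000 UMIs (0.15 log2, adjusted p = 0.75) and with cycling cells left out (0.11 log2, adjusted p = 0.45).

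Ptger4, the EP4 receptor, was at 28.9, 21.2 and 20.9 CPM in the cytokine group with aPD-1 and at 16.4 CPM with IgG (0.57 ± 0.08 log2 above the other groups, adjusted p = 6.17e-08). The exhausted group had the same mean level at 23.9, 23.5, 19.6 and 20.4 CPM (0.47 ± 0.11 log2, adjusted p = 6.71e-04). That call ended after thinning to 2000 UMIs (0.29 log2, adjusted p = 0.64) and with the score limit at 1.5 (adjusted p = 0.061). Ptger4 was lower in the granzyme group, as Gpr65 was, and in the hypoxia group, where Gpr65 was higher and Ptger2 only just passed. In the granzyme group it was at 11.9, 10.2, 7.48 and 11.7 CPM (fell by 0.68 log2, adjusted p = 1.36e-04) and in the hypoxia group at 13.8, 12.02, 8.69 and 11.4 CPM (fell by 0.54 log2, adjusted p = 2.56e-05). Both were below the other groups in 4 of 4 libraries. After thinning every cell to 2000 UMIs neither passed, at -0.69 log2 in the granzyme group (adjusted p = 0.21) and -0.24 log2 in the hypoxia group (adjusted p = 0.56). In sgNT cells alone neither passed, at -1.47 log2 (adjusted p = 0.074) and -0.42 log2 (adjusted p = 0.40).

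**Figure D3:**
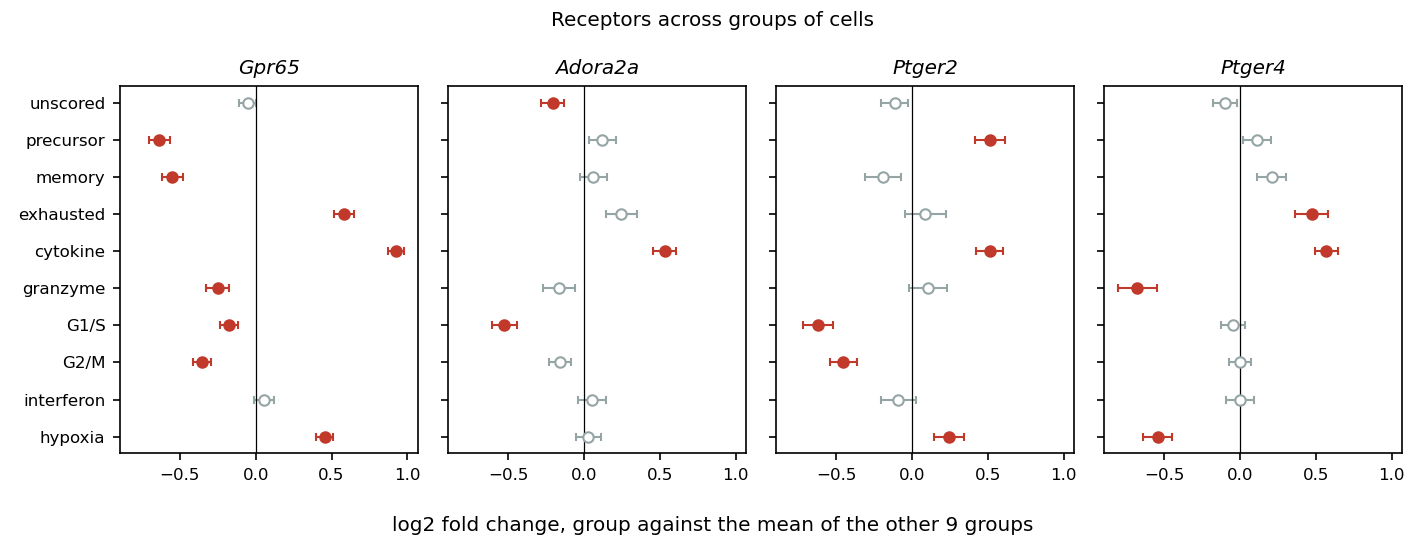
log2 fold change (x axis) of each receptor in each of 10 groups (rows) against the mean of the other groups, with SE, from 4 libraries. Filled red points passed an adjusted p of 0.05. Gpr65 has 3 points to the right and 5 to the left, and the cytokine row is filled to the right in all 4 panels.

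Leaving out the 125 cells with UMIs of other cell types, an alternative added after the data were seen, left each of the 40 calls as it was. In cells with nontargeting guides alone 8 of 40 comparisons passed. They were Gpr65 in the cytokine, exhausted, hypoxia, precursor, memory and G2/M groups, Ptger4 in the exhausted group and Adora2a in G1/S.

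Among genes outside the marker lists with a mean of at least 4 log2 CPM, those whose levels followed a receptor most closely over the 40 sums of group and library, centred within each library, were named as a description. For Ptger4, 1 gene of the marker lists ranked above Tnfaip8 and Sla. The sums share cells' groups and libraries, and the correlations carry no p. For Gpr65 they were Zbtb32 (Pearson r = 0.94), Agfg1 (0.92), Mapre2, Btg3 and Sub1 (each 0.92), out of 5667 genes. For Adora2a they were Rilpl2 (0.84), Tob2 (0.83), the calcium channel Orai1 (0.80), the nuclear receptor Nr4a3 (0.80) and Zfp36l1 (0.79). Ptger2 followed Uhrf1bp1l (0.76), the osmotic stress factor Nfat5 (0.74), Slc5a3 (0.74), Nsa2 (0.74) and Pou2f2 (0.73). Ptger4 followed Ap1s2 (0.75), Cd5 (0.75), a damper of T cell receptor signals, Il18rap (0.75), Tnfaip8 (0.74) and Sla (0.72). Between the receptors themselves r was highest for Adora2a with Ptger2 (0.54) and lowest for Ptger2 with Ptger4 (0.16).

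The other genes of the pathway were taken from 10 lists by role with 114 genes, of which 73 were tested across groups. In the cytokine group 24 were higher and 22 lower, 63% of those tested against 47.9% of all genes. In the exhausted group 30 were higher and 7 lower, 50.7% against 35.8%, with a median of 0.20 log2 against 0.02 log2 over all genes. In G1/S 18 were higher and 32 lower, 68.5% against 54.7%. The counts below are out of the tested genes of each list.

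Among the genes that supply the ligands, 9 of 15 were tested. Entpd1, which starts the breakdown of extracellular ATP to adenosine, was at 19.8, 13.1 and 28.6 CPM in the precursor group with aPD-1 and at 21.4 CPM with IgG, below the other groups in 4 of 4 libraries (-1.496 ± 0.10 log2, adjusted p = 4.16e-15). Nt5e, which makes the adenosine, was highest in the exhausted group at 126, 81.6, 134 and 144 CPM (0.70 ± 0.08 log2, adjusted p = 7.26e-10). Adk, the kinase that removes adenosine inside cells, was higher in the precursor group (0.92 ± 0.07 log2, adjusted p = 2.23e-13). The exhausted group held 2 higher and 5 lower genes of this list, and G1/S 7 higher and 1 lower. Ptgs1 and Ptgs2, the cyclooxygenases that make prostaglandins, were among those too low to be tested.

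All 8 genes of proton sensing and of proton or lactate transport were tested. Slc16a3, a lactate and proton exporter, was at 182, 165, 217 and 204 CPM in the hypoxia group, 1.61 ± 0.07 log2 above the others (adjusted p = 1.03e-21), in the same group in which Gpr65 was higher. Slc16a1, a related transporter, was higher in the cytokine group (0.68 ± 0.08 log2, adjusted p = 9.18e-09). Car2, a carbonic anhydrase, was higher in the granzyme group in 3 of 4 libraries (0.72 ± 0.09 log2, adjusted p = 3.83e-08), at 39.3 and 59.8 CPM in aPD-1 replicates 1 and 2 and 129 and 106 CPM in replicate 3 and IgG.

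Of 16 other receptors that couple to the stimulatory G protein 7 were tested, with 4 higher and 0 lower in the exhausted group and 4 higher and 1 lower in the cytokine group. Gpr174, a receptor for lysophosphatidylserine, was at 41.8 to 46.3 CPM in the granzyme group over the 4 libraries, -0.50 ± 0.06 log2 against the others (adjusted p = 5.26e-08), and at -0.20 log2 after thinning (adjusted p = 0.62). Ptger4 was lower in the same group.

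Among the G proteins Gnas, the stimulatory subunit itself, was at 715 to 743 CPM in the memory group, 0.08 ± 0.03 log2 above the others (adjusted p = 0.026), a call that ended without aPD-1 replicate 1 (adjusted p = 0.10), without replicate 2 (adjusted p = 0.18) and without IgG (adjusted p = 0.052). The inhibitory subunit Gnai2 was lower in the cytokine group (-0.24 ± 0.03 log2, adjusted p = 8.95e-09). The third, Gnai3, was lower in G1/S (-0.26 ± 0.04 log2, adjusted p = 2.64e-07). Arrb2, an arrestin that shuts receptors off, and the receptor kinase Grk2 were lower in the cytokine group, at -0.44 ± 0.06 log2 and -0.22 ± 0.04 log2 (adjusted p = 9.74e-08 and 5.59e-06). In that group 0 of the 4 tested genes of this list were higher and 3 lower. Grk6 was higher in the exhausted group (0.34 ± 0.06 log2, adjusted p = 1.42e-05), but not after thinning to 2000 UMIs (0.03 log2, adjusted p = 0.96).

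Of 10 adenylyl cyclases, Adcy7 and Adcy3 were tested, and Adcy7 was at 34.0, 22.2, 30.7 and 32.7 CPM in the cytokine group (-0.44 ± 0.06 log2, adjusted p = 2.86e-08). Of 8 tested phosphodiesterases 1 was higher and 5 were lower in the cytokine group, with Pde4d at -0.74 ± 0.08 log2 and Pde3b at -0.54 ± 0.05 log2 (adjusted p = 3.03e-10 and 4.27e-11). In the exhausted group 4 phosphodiesterases were higher and 0 lower, with Pde4b at 31.0, 25.5, 24.4 and 21.1 CPM (0.61 ± 0.10 log2, adjusted p = 6.60e-06), a call that ended after thinning (0.12 log2, adjusted p = 0.88).

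Of 14 tested effectors 4 were higher and 4 lower in the cytokine group. Prkacb, a catalytic subunit of protein kinase A, was lower there (-0.48 ± 0.06 log2, adjusted p = 2.26e-08), and the anchoring protein Akap13 was higher in the exhausted group (0.41 ± 0.03 log2, adjusted p = 1.81e-13, and 0.12 log2 after thinning, adjusted p = 0.36). Prkar2a, a regulatory subunit, was higher in G1/S (0.67 ± 0.07 log2, adjusted p = 2.90e-11). Among 8 CREB factors Crem, which cAMP itself induces, was at 114, 95.1, 102 and 84.3 CPM in the exhausted group, 0.84 ± 0.07 log2 above the others (adjusted p = 2.65e-13). Crtc3 was lower in G1/S (-0.36 ± 0.06 log2, adjusted p = 1.01e-06) and Atf1 higher in G2/M (0.35 ± 0.04 log2, adjusted p = 2.75e-10).

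Of the cAMP-inducible genes 5 of 10 tested were higher in the cytokine group and 1 lower, and Nr4a1 was at 175, 142, 163 and 152 CPM (2.19 ± 0.12 log2, adjusted p = 1.69e-18). Nr4a3 (2.03 ± 0.09 log2, adjusted p = 1.16e-21) and Nr4a2 (1.58 ± 0.09 log2, adjusted p = 5.23e-18) were higher in the same group. These nuclear receptors are immediate early genes that signals from the T cell receptor induce as well as cAMP, and cytokine and chemokine genes defined the group. In the exhausted group 5 were higher and 0 lower, and in G1/S 0 were higher and 6 lower.

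**Figure D4:**
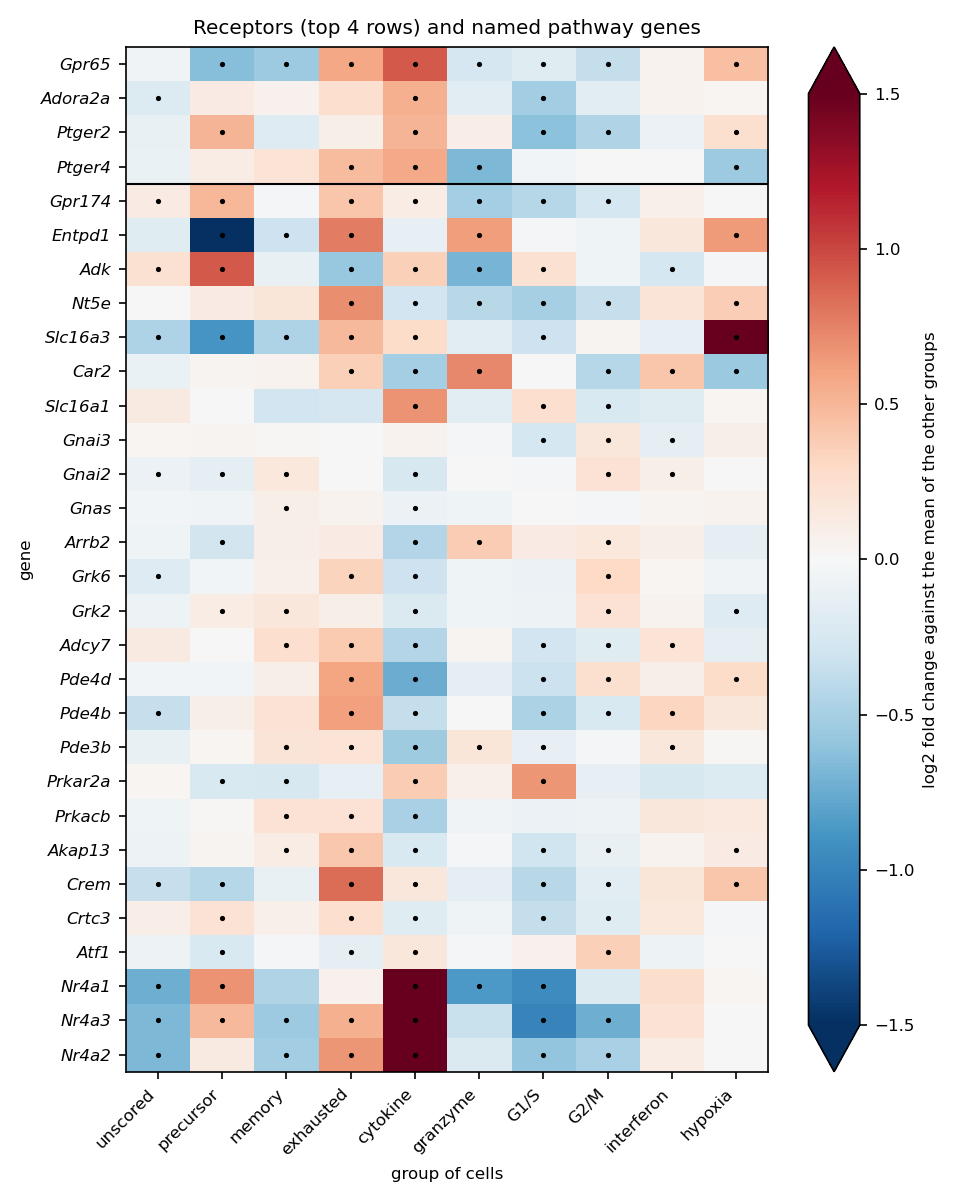
log2 fold change (colour, held at 1.5 in either direction) of the 4 receptors and the 26 pathway genes named by rule (rows) in 10 groups of cells (columns), from 4 libraries. Dots mark an adjusted p under 0.05. The cytokine column is red for all 4 receptors and for Nr4a1, Nr4a2 and Nr4a3, and blue for Pde4d, Pde3b, Adcy7 and Prkacb.

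Between aPD-1 and IgG 0 of 85 tested pathway genes passed (edgeR, adjusted p), as did 0 of all 13810 genes (0%), and 2 of the 85 and 282 of all genes (2.04%) had an unadjusted p under 0.05. DESeq2 called 0 pathway genes and 5 of all genes. The 10 tested cAMP-inducible genes had a median difference of 1.016 log2, against 0.03 log2 with the pairs of libraries as a term. With 1 IgG library the SE and p of this comparison rest on the spread of the aPD-1 libraries alone. The 3 with the smallest p, each above IgG in 3 of 3 libraries, were Nr4a2, the bicarbonate transporter Slc4a7 and Nr4a3. Nr4a2 was at 203, 173 and 150 CPM with aPD-1 and 122 CPM with IgG (0.54 ± 0.20 log2, unadjusted p = 0.038, adjusted p = 0.99). Slc4a7 was at 42.3, 37.6 and 41.6 CPM against 32.4 CPM (0.34 ± 0.13 log2, adjusted p = 0.99), and Nr4a3 at 55.8, 47.2 and 38.9 CPM against 32.6 CPM (0.55 ± 0.22 log2, adjusted p = 0.99). For Nr4a2 and Nr4a3 replicate 3 was the treated library nearest to IgG.

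The count rested on replicate 3. Without it 37 of 84 pathway genes passed, as did 3316 of all 13327 genes. With the pairs of libraries as a term 3 of 85 passed, as did 283 of all 13810 genes, but that fit sets replicate 3 alone against IgG and takes its spread from replicates 1 and 2, so no direction with aPD-1 is read from it. The 3 genes, chosen after their values were seen, were Adrb1, Car2 and Fosb. Adrb1 was at 7.46, 7.18 and 13.4 CPM with aPD-1 and 9.44 CPM with IgG, and Car2 at 38.2, 40.6 and 75.2 CPM against 55.4 CPM. Fosb was at 103, 88.9 and 21.3 CPM against 30.2 CPM. In each of these genes replicates 1 and 2 lay on the other side of IgG from replicate 3.

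Per cell, the receptors were sparse. Cells were reduced at random to 2000 UMIs each, and 163 cells of the IgG library fell short of that and were dropped. At this depth Gpr65 had a UMI in 21.1%, 20.7% and 20.8% of aPD-1 cells and 13.4% of IgG cells (exact 95% intervals 19.6 to 22.8%, 19.1 to 22.3%, 19.8 to 21.8% and 12.8 to 14.0%). Unthinned, the shares were 74.7%, 72.8%, 66.6% and 35.2%, a gap that the depth of the cells widens. At 2000 UMIs Adora2a was found in 4.27% to 5.61% of cells, Ptger2 in 1.97% to 3.34% and Ptger4 in 2.79% to 4.30%. Of 36 genes used as markers of other cell types, the median share was at most 0.039% per library. Ighm (9.82% to 11.9%) was above Adora2a, Ptger2 and Ptger4 in each library, and Cd68 (2.21%) was above Ptger2 in aPD-1 replicate 1. The intervals cover counting error only, with cells counted as if independent. Gpr65 was chosen on this contrast, so its shares are a description and its intervals are no test of treatment.

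Whether pairs of receptors were found in the same cell more often than their separate shares would give depended on the depth. Unthinned, all 24 pair-by-library ratios of observed to expected cells were above 1, from 1.05 to 1.25. Deep cells raise such ratios for any pair of genes, and after thinning to 2000 UMIs 15 of 24 were above 1, from 0.33 to 2.08, with as few as 1 cell behind a ratio. At 4000 UMIs 18 of 24 were above 1, and of the 6 pairs Adora2a with Ptger4 was above 1 in all 4 libraries (1.12 to 1.51), but in 3 of 4 at 2000 UMIs (0.91 to 2.08).

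The guide library let the receptors be compared between knockouts and nontargeting guides (sgNT). The knockouts with a link to cAMP were Adcy10, the soluble adenylyl cyclase, Taar1, a trace amine receptor that raises cAMP, and Pla2g4a, a phospholipase that frees the substrate for prostaglandins, with Pik3cd, a phosphoinositide kinase subunit that acts below the T cell receptor, beside them. The guides against the first pair show where the cuts were aimed, in coding exons of mm10 for the 5 found in a spliced transcript (lower case, without the PAM).
Adcy10 guide 1, chr1:165521807-165521826, plus strand, exon 12: aggatgatgatgtactaccc
Adcy10 guide 2, chr1:165510279-165510298, minus strand, exon 6: ttcatccccaaagaccaaca
Adcy10 guide 3, not placed: ctcacgagtcgagctctctg
Taar1 guide 1, chr10:23920837-23920856, minus strand, exon 1: caggaaggctccaactaacg
Taar1 guide 2, chr10:23920647-23920666, plus strand, exon 1: tgagaactgttgagcgctgt
Taar1 guide 3, chr10:23920602-23920621, minus strand, exon 1: gcccagcagaaagtcgacaa
Exon numbers are those of transcripts Adcy10-201 and Taar1-201. Whether a guide cut is not seen in these data. Transcripts of Adcy10, Taar1 and Pla2g4a were themselves too low in these cells to be tested across groups.

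In 82 targets with sums of at least 10 cells in at least 2 libraries, 0 of 328 receptor-by-target comparisons passed (edgeR quasi-likelihood test, library as a block), and 13 had an unadjusted p under 0.05. Over all genes 0.0432% of 803518 comparisons passed and 4.48% had an unadjusted p under 0.05. All targets were set against the same sgNT sums, 2673 cells.

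In Adcy10 knockout cells Gpr65 was at 122, 93.9 and 113 CPM with aPD-1 and 71.4 CPM with IgG, and in sgNT cells at 114, 116, 128 and 68.5 CPM. The knockout was above sgNT in 2 libraries and below it in 2. Gpr65 differed from sgNT by -0.07 ± 0.12 log2 (SE) in Adcy10 knockout cells (280 cells), -0.09 ± 0.17 in Taar1 (218 cells, 2 libraries), 0.19 ± 0.12 in Pla2g4a (242 cells) and 0.10 ± 0.12 in Pik3cd (489 cells). Over all targets its differences ran from -0.47 to 0.31 log2 with a median SE of 0.131. Ptger4 in Pik3cd cells was 0.39 ± 0.20 log2 above sgNT (unadjusted p = 0.057, adjusted p = 0.48), the smallest adjusted p of any receptor. In aPD-1 replicate 1 the knockout lay below sgNT, at 5.28 against 20.5 CPM, and the difference was 0.56 log2 without that library and 0.09 log2 without replicate 3. Adora2a was above sgNT in 56 of 82 targets and had an unadjusted p under 0.05 in 8, all against the same sgNT sums. Ptger2 differed from sgNT by -0.18 to -0.49 log2 in these 4 knockouts, with SE of 0.26 to 0.38, and none passed. The Pla2g4a value was 0.04 log2 without replicate 3 and -0.65 log2 without replicate 1. A comparison that missed the threshold does not show equal levels.

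**Figure D5:**
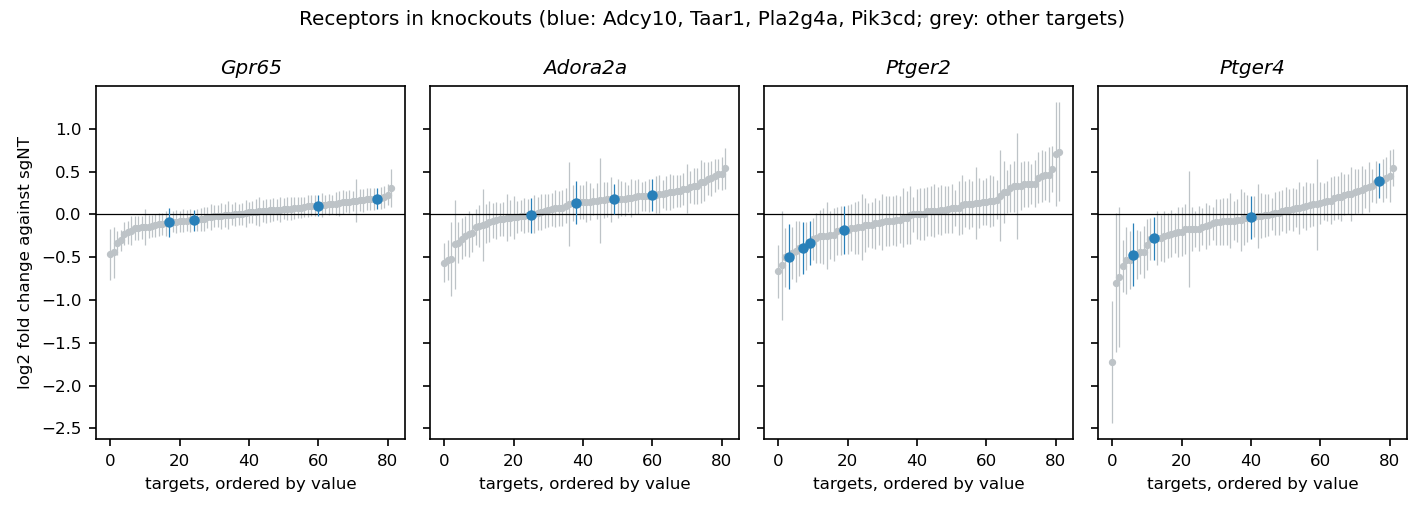
log2 fold change against sgNT (y axis, with SE) of each receptor in 82 knockouts, ordered by value (x axis). Blue points are Adcy10, Taar1, Pla2g4a and Pik3cd. The Gpr65 values lie between -0.47 and 0.31, and no point in the 4 panels passed an adjusted p of 0.05.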

How the data were processed

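Single-cell RNA and guide libraries of CD90.1+ OT-I T cells were made with a 10x Genomics 3′ kit. The authors aligned reads and counted unique molecules with Cell Ranger 3.1.0 (mm10, submitters' processing notes, which also list Seurat and R 3.6.3), and deposited raw counts of UMIs per gene and guide for each barcode. Cells with 1 guide, mitochondrial UMIs of at most 10% and a UMI total within 3 scaled median absolute deviations of the library median (log10 scale) were kept, 23059 of 56359 barcodes. Barcodes with more guides were left out and no doublet caller was run. Totals of gene UMIs were 142945121 to 155974184 per library. Intervals are exact binomial and cover counting error only.

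UMIs were summed per group and library or per knockout and library (at least 10 cells) and fitted with edgeR 4.0.16 (TMM, filterByExpr, quasi-likelihood test, Benjamini-Hochberg adjustment) in R 4.3.3, with library as a block. Treatment was fitted on library sums, with the spread taken from the aPD-1 libraries since IgG has 1. DESeq2 1.42.0 was an alternative. The step was tested on simulated data. In knockout sums, cells with at least 10 UMIs of other cell types were left out. A score was log(1 + 10000 × list UMIs / total UMIs), scaled within its library. Labels give no animals, so no p-value can be said to measure the spread between animals. In the group and knockout fits p-values measure the spread of the sums that is left within libraries.

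For each pathway list, up to 3 genes were named, those with the largest change in any group among called genes with a mean of at least 4 log2 CPM. By treatment the 3 smallest p were named, and among knockouts every call plus Adcy10, Taar1, Pla2g4a and Pik3cd. The 5 genes most like a receptor by Pearson r were named. Members, lists and tests were chosen with earlier results of these data known. The library is the replicate number shared by the groups compared, since the groups are cells of the same libraries.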

Additional observations from a re-analysis of the deposited data

Results flagged for a closer look

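The mean difference of Ptger2 between aPD-1 and the single IgG library had opposite signs in different groups of cells. In the precursor group all 3 aPD-1 libraries were above IgG, by 0.14 log2 on average. That value rests on 69, 69 and 141 UMIs in aPD-1 replicates 1, 2 and 3 and 149 UMIs in IgG. In 8 groups all 3 were below it, by -0.37 log2 in the unscored, -0.65 in the memory, -0.25 in the exhausted, -0.51 in the cytokine, -0.43 in the granzyme, -0.17 in the G1/S, -0.28 in the G2/M and -0.52 in the hypoxia group. The difference between groups was not tested. With replicate 3 alone against IgG the value was 0.15 log2 in the precursor group. In the other 8 it was -0.16 log2 in the unscored, -0.21 in the memory, -0.05 in the exhausted, -0.20 in the cytokine, -0.04 in the granzyme, -0.25 in the G1/S, -0.21 in the G2/M and -0.22 in the hypoxia group. In the interferon group, where the libraries were split, the mean difference was -0.41 log2 and that of replicate 3 was 0.32 log2.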

How the results depend on the processing

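The 20 calls of receptors across groups became 13 with no replicate block, 8 in sgNT cells only and 13 after thinning to 2000 UMIs, and ran from 17 to 22 when 1 library was left out. The 300 pathway calls became 134 with no replicate block, 94 in sgNT cells only, 109 after thinning and 190 without cycling cells, and ran from 250 to 271 when 1 library was left out. Gpr65 in the cytokine, exhausted and precursor groups passed in 15 of 15 alternatives. Of the alternative values of called receptor comparisons 256 stayed past the threshold and 38 did not, 8 values of comparisons that had not passed did, and no called comparison reversed. For the named pathway genes 364 values stayed and 22 did not.

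Pathway calls by treatment went from 0 to 37 without aPD-1 replicate 3 (3316 of all 13327 genes), stayed at 0 without replicate 1 or 2, and were 3 with the pairs of libraries as a term (283 of all 13810). The treatment difference of Gpr65, 0.75 log2, was 0.83 in sgNT cells only and 0.70 as a mean over cells. It ran from 0.74 to 0.77 when 1 aPD-1 library was left out. The single IgG library is in every setting, so how far the difference rests on it could not be checked. Receptor pairs above 1 went from 15 to 24 unthinned. Of the 20 most similar genes 13 stayed with the score limit at 0.5, and 12 to 14 when 1 library was left out. Knockout calls stayed at 0 of 328 with no replicate block (8 with an unadjusted p under 0.05). For knockouts, DESeq2 and the fit without a filter on low counts were not run. The cause of these changes was not tested.

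Depth limits what can be read for Adora2a, Ptger2 and Ptger4, each found in under 6% of cells after thinning.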
